A study of Mus musculus with 3 samples.

Results

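Barcodes rich in markers of the retinal pigment epithelium (RPE) were picked out of single-nucleus RNA libraries of whole mouse cornea. The members were chosen by their measured UMIs of 10 marker genes, so the levels of those genes are given as a description. A barcode was a member when it held at least 500 genes and at most 5% mitochondrial UMIs (unique molecular identifiers, 1 per captured RNA molecule). It also had to carry UMIs of at least 4 of the 10 genes Rpe65, Rgr, Ttr, Rlbp1, Ptgds, Lrat, Best1, Rdh5, Slc6a20a and Rrh, with Rpe65 or Rgr among them. The summed share of these 10 genes in the barcode had to reach at least 5 times their share over all barcodes of its library. Of 317975 barcodes in all, 229 met the rule, made up of 140 of 96587 WT, 76 of 107031 KO and 13 of 114357 KO_PBS barcodes. The barcodes that met the gene and mitochondrial limits but not the rest of the rule are called the other barcodes.

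WT was made from wild-type mice without treatment, KO from untreated mice lacking Aire, and KO_PBS from such knockout mice given phosphate-buffered saline for 14 days. Aire drives the display of self-antigens in the thymus, and its loss leads to autoimmune dry eye. Each group was 1 library of nuclei from snap-frozen corneas pooled from 5 mice at 7 weeks of age. The series text instead gives 6 weeks and day 7 of treatment, and a further group, given lacripep, is named there and was not analysed here. With 1 library per group no difference between groups has a replicate check, so no test was made, and every interval printed is an exact 95% interval that covers counting error only. Over all barcodes, Aire itself had 15 (WT), 27 (KO) and 68 (KO_PBS) UMIs, with 0 in the members. The sources used here do not say which part of the gene was deleted, so these 3′ tags do not check the knockout labels.

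The RPE is a pigmented epithelial sheet behind the retina, with microvilli that face the photoreceptors. It turns spent all-trans-retinal back into 11-cis-retinal, with LRAT forming retinyl esters, RPE65 converting them to 11-cis-retinol, RDH5 oxidising it, and RLBP1 (CRALBP) carrying the product. It also moves lactate, ions and iron between retina and choroid, holds melanin and digests shed outer segments. It is not a layer of the cornea, and the labels name only whole cornea.

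The rule requires Rpe65 or Rgr, so the 250 bases before the start of these genes are shown. They are printed 5′ to 3′ on the gene's strand, from the RefSeq promoter table of build GRCm38.p6, with matches to either of 2 motifs in capitals. The motifs searched on both strands were TAATCC (reverse GGATTA), a core of the site of OTX factors, and CATGTG (reverse CACATG), the M-box form read by MITF. Matches of different motifs cannot overlap by more than their end letters. The forward and reverse forms of 1 motif can, as the M-box did in Cltrn. The Rpe65 window lies at chr3:159598931-159599180 on the plus strand and the Rgr window at chr14:37049015-37049264 on the minus strand.
Rpe65: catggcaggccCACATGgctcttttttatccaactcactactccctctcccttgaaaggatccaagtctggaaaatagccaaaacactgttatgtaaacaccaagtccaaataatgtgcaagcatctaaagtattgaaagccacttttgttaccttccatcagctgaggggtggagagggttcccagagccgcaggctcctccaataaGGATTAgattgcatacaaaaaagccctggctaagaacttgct
Rgr: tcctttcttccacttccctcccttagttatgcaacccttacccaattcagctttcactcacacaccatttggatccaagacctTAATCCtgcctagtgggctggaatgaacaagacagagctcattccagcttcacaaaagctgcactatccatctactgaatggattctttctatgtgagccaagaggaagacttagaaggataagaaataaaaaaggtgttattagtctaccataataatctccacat
Rpe65 held an OTX match whose first base lies 42 bases before the start and an M-box match 239 bases before it. Rgr held an OTX match 167 bases before its start. Over 32851 promoter windows of this length, 6.25% held the OTX motif, 12.3% the M-box and 0.788% both. The search covered 30 genes, the 10 rule genes and the 20 genes outside the rule named by size, of which 23 had a window. The OTX motif was in 5 of these (Rpe65, Rgr, Best1, Abca4 and Sag) and the M-box in 3 (Rpe65, Rlbp1 and Cltrn).

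The markers Rpe65, Rgr, Ttr and Rlbp1 were all present in the members, but so was the RNA of the corneal epithelium. Krt12, the keratin of corneal epithelial cells, was found in 140 of 140 WT, 76 of 76 KO and 13 of 13 KO_PBS members. Its level was 23464 CPM (UMI counts scaled to a common library total) in WT members against 26126 in the other barcodes, 13625 against 13793 in KO, and 3044 against 6200 in KO_PBS. The 10 rule genes made up a median of 0.691% (WT), 0.357% (KO) and 3.19% (KO_PBS) of a member's UMIs, while 8 corneal epithelial markers made up 4.03%, 3.08% and 0.898% of all member UMIs. The members are therefore called marker-rich barcodes, and whether each is 1 RPE nucleus was not tested.

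Members were deeper than the rest. The median WT member had 2604 UMIs, the median KO member 3940 and the median KO_PBS member 2321, against 2261, 2980 and 1446 in the other barcodes. Mitochondrial UMIs had a median of 0.937%, 0.830% and 1.18% in members and 0.804%, 0.793% and 0.972% in the others. Libraries shared 2833 (WT and KO), 2998 (WT and KO_PBS) and 3379 (KO and KO_PBS) barcode sequences, and 0 were members in both libraries of a pair.

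The number of members cannot be compared between libraries, because the threshold moved with each library's own level of the rule genes. These genes took 0.0622% of the WT, 0.0168% of the KO and 0.455% of the KO_PBS UMIs, which set the threshold at 0.311%, 0.0839% and 2.27% of a barcode's UMIs. Members were 0.145% of the eligible barcodes in WT (0.122 to 0.171%), 0.0710% in KO (0.0560 to 0.0889%) and 0.0116% in KO_PBS (0.00619 to 0.0199%). Barcodes with at least 4 rule genes, Rpe65 or Rgr among them, whatever their share, gave another order: 1135 were from KO_PBS, 227 from WT and 78 from KO. With the KO_PBS threshold in every library, 18 WT, 4 KO and 13 KO_PBS barcodes remained.

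Ptgds, which encodes prostaglandin D synthase, weighed most on the threshold. It held 86.4% of the rule genes' UMIs over the WT library, 78.8% in KO and 90.5% in KO_PBS, and 59.7%, 50.6% and 62.6% of them in members. The rule without Ptgds gave 61 WT, 22 KO and 238 KO_PBS members, and 47, 21 and 11 of these were also members by the full rule. Among genes outside the rule, Slc16a8 was then at 37.7 (WT), 52.6 (KO, from 9 UMIs) and 13.3 times (KO_PBS) the other barcodes, Trf at 40.6, 12.9 and 5.56 times, and Cst3 in KO_PBS at 1.61 times, short of a call.

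The rule values of the members spread widely and ran close to the threshold. The share of the rule genes was 5.01 to 87.1 times the library share in WT members (median 11.1), 6.12 to 187 in KO (median 21.3) and 5.00 to 14.8 in KO_PBS (median 7.02). The nearest barcodes outside stood at 4.88, 4.67 and 4.91 times. Exactly 4 rule genes were seen in 93 WT, 55 KO and 2 KO_PBS members, and 6 or more in 16, 8 and 11. The 2 KO_PBS members with 4 rule genes differed from the other 11: they held 173 and 229 Ptgds UMIs, 1 Ttr UMI each and 0 of Trf, Slc16a8 and Rdh5. Of these, 1 met a rule of the same kind for melanocyte markers and the other for ciliary and iris epithelium. Among all eligible KO_PBS barcodes, 6 and 11 met these rules. Many results in KO_PBS that rest on these 2 members are given with and without them. Thinned to 1000 UMIs each, members held a median of 8 rule UMIs in WT (range 0 to 49), 3 in KO (0 to 31) and 33 in KO_PBS (21 to 67).

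**Figure D1:**
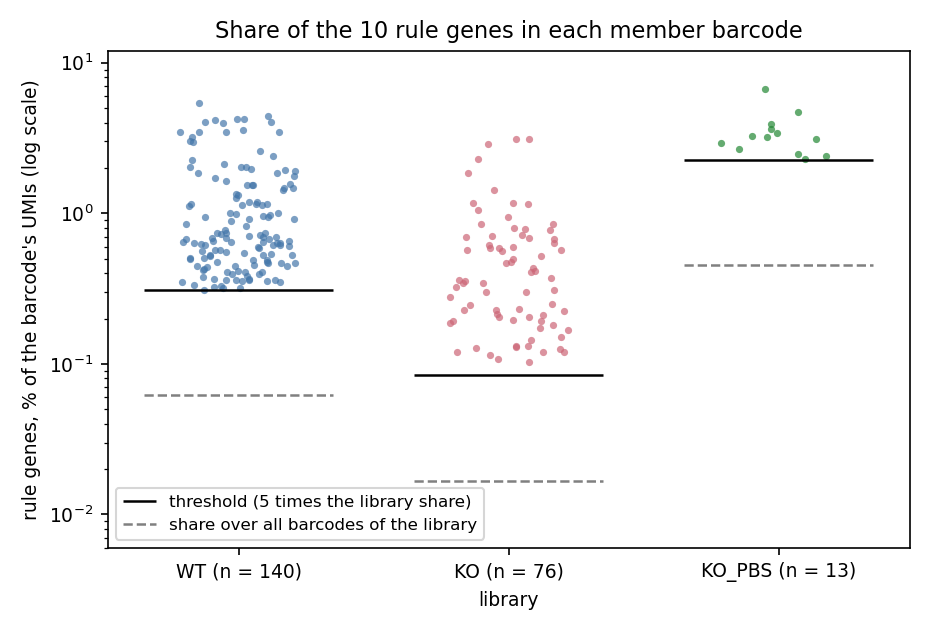
Each point is 1 member; the y axis (log scale) is the share of the 10 rule genes in its UMIs in %, by library on the x axis. The solid lines mark the thresholds (0.311%, 0.0839% and 2.27%) and the dashed lines the share over all barcodes; the KO_PBS members lie at 2.28 to 6.73%, where 18 WT and 4 KO members also lie.

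The retinoid cycle genes chose the members, so their levels are a description. Rpe65, the isomerase of the cycle, stood at 182 CPM in WT members (145 to 226), 136 in KO (99.3 to 181) and 1711 in KO_PBS (1328 to 2169), against 2.74, 0.923 and 31.8 in the other barcodes. A single member held 0 to 6 Rpe65 UMIs in WT, 0 to 3 in KO and 0 to 13 in KO_PBS. Rpe65 thus rested on few molecules per barcode in each library. Thinned to 1000 UMIs, 17.9% of WT, 9.21% of KO and 84.6% of KO_PBS members kept an Rpe65 UMI, against 0.271%, 0.0993% and 2.92% of the other barcodes. Without thinning, the shares were 40.7%, 50.0% and 92.3% of members and 0.679%, 0.293% and 4.69% of the others.

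Rgr encodes an RPE opsin that acts on the chromophore. Its level was 640 (WT), 265 (KO) and 1484 CPM (KO_PBS) in members, and 125 of 140, 63 of 76 and 12 of 13 members held it. Ttr, the carrier of thyroxine and of retinol-binding protein, stood at 3552, 1724 and 6591 CPM against 48.3, 18 and 244 in the other barcodes. The lowest, median and highest Ttr counts of a member were 0, 5 and 92 UMIs for WT, 0, 5 and 60 for KO, and 1, 17 and 66 for KO_PBS. Ttr was found in all but 1 member of WT and all but 1 of KO, and it was also the rule gene after Ptgds that the other barcodes most often held, in 9.93%, 4.66% and 31.8% of them.

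The enzymes and the carrier of the cycle were sparser. Rdh5 was at 449, 209 and 906 CPM (102, 48 and 11 members), Rlbp1 at 122, 44.2 and 906 (37, 14 and 12 members) and Lrat at 48.9, 47.2 and 629 (17, 12 and 10 members). Rrh, which encodes an RPE opsin called peropsin, had 10, 6 and 1 UMIs, and Best1, the chloride channel of the basal RPE membrane, had 1, 1 and 0. The 0 of Best1 in KO_PBS is over 39750 UMIs, which allows a level of up to 92.8 CPM. Slc6a20a, an imino acid transporter, had 9, 4 and 6 UMIs.

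Genes outside the rule were compared between the members and the other barcodes of the same library. A gene with at least 10 UMIs in the members was called higher or lower when its CPM differed at least 2-fold, with counts under 3 set to 3, and the intervals did not overlap. In WT 157 of 5290 genes (2.97%) were higher and 5 (0.0945%) lower. In KO 108 of 5381 (2.01%) were higher and 5 (0.0929%) lower, and in KO_PBS 178 of 630 (28.3%) were higher and 48 (7.62%) lower. With only 13 members in KO_PBS, a gene reaches 10 UMIs mostly by being high there, so the KO_PBS shares are not comparable with the others. Without the 2 KO_PBS members with 4 rule genes, 74 genes were higher and 11 lower of 358 tested.

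The monocarboxylate transporter Slc16a8 (MCT3), which exports lactate across the basal RPE membrane, had the largest mean log2 ratio over WT and KO among genes outside the rule that were higher in both. The gene lies at chr15:79251014-79254761 (GRCm38, minus strand, GENCODE M21). Slc16a8 stood at 200 CPM in WT members (161 to 246) against 4.92 in the other barcodes, 40.6-fold higher. In KO it was 64.8 (40.6 to 98.2) against 1.54, 42.1-fold, and in KO_PBS 528 (327 to 808) against 18.9, 27.9-fold. The intervals of members and others were far apart in each library. After thinning, 17.1%, 6.58% and 53.8% of members held a Slc16a8 UMI against 0.495%, 0.160% and 1.87% of the others; without thinning the shares were 37.1%, 25% and 53.8% against 1.25%, 0.499% and 2.97%.

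Trf, which encodes the iron carrier transferrin, was next by that mean (chr9:103204001-103230444, minus strand, with an exon overlapped by a gene that is not in every library's list). It stood at 702 CPM in WT members (627 to 784) against 18, 519 in KO (445 to 601) against 28.8, and 2465 in KO_PBS (2002 to 3005) against 186. The folds were 39, 18 and 13.3. As the 2 KO_PBS members with 4 rule genes held no UMI of either gene, the KO_PBS folds were larger without them, at 43.8 for Slc16a8 and 20.8 for Trf. Of the 176 Trf UMIs in KO members, 45 came from 1 barcode, so this member held more Trf than any in WT, where the highest had 24.

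Genes of RPE transport and secretion were among those higher in members. In WT 11 of 16 tested genes of the list were higher (median log2 ratio 2.24, against 0.07 over all genes), in KO 5 of 13 (0.58 against 0.07) and in KO_PBS 11 of 12 (2.52 against 0.31). No tested gene of the list was lower. Over all tested genes 2.97%, 2.01% and 28.3% were higher. Without members of another marker list 10 of 15 (WT, median 1.46), 5 of 13 (KO, 0.61) and 10 of 11 (KO_PBS, 2.97) were higher. The 12 genes tested in KO_PBS passed the minimum mostly by being high there, so that count is a description. With no UMI minimum, 13 of 25 (WT), 9 of 24 (KO) and 15 of 24 (KO_PBS, median 1.97) were higher. Over all genes 360 of 13433, 334 of 13660 and 689 of 8936 were then higher, and the KO_PBS median was 1.19. At the KO_PBS threshold 9 of 10 tested genes were higher in the 18 WT members and 4 of 4 in the 4 KO members. Over all tested genes 92 of 803 and 28 of 213 were. With 15205 UMIs in the 4 KO members, genes pass the minimum mostly by being high there, so these counts are a description. The 5 called in KO by the full rule were Slc16a8, Trf, Enpp2, Slc4a5 and Cst3, and all 5 were higher in WT and KO_PBS too. With the 2 KO_PBS members with 4 rule genes left out, 10 of 11 passed there. The list is not independent evidence, since it was drawn up with earlier results of these data known.

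Cst3, the secreted protease inhibitor cystatin C, stood at 3201, 1683 and 6893 CPM in members against 427, 647 and 1714, which is 7.5-, 2.6- and 4.02-fold higher. Enpp2, the lysophospholipase autotaxin, was 21.5-, 6.41- and 13.6-fold higher; an exon of it is also overlapped by a gene not in every list, and its KO_PBS fold was 21.4 without the 2 members with 4 rule genes. Slc4a5, a sodium bicarbonate cotransporter, was 8.46-, 17.7- and 6.38-fold higher, with 25 UMIs in the members of each library. These 3 genes passed in each library, and the size of the ratio differed between libraries by gene.

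Other genes of the list passed in 1 or 2 of the libraries. Car14, a membrane carbonic anhydrase, was 9.96-fold higher in WT and 5.96-fold in KO_PBS, and had 9 UMIs in KO members. The signal protein Bmp4 was 10.1- and 5.55-fold higher in WT and KO_PBS and had 2 UMIs in KO. Ermn, which binds actin, was at 48.9 CPM against 0.803 in WT, 60.9-fold higher, with 7 UMIs in KO and 6 in KO_PBS, under the 10 needed for a call. Apoe and Timp3, a lipid carrier and a matrix inhibitor, were 2.97- and 2.94-fold higher in WT and 2.60- and 3.35-fold in KO_PBS, and stood at 1.5 and 1.71 times the other barcodes in KO. Apoe stood at 1.8 times in KO_PBS without the 2 members with 4 rule genes, short of the size rule. Trpm3, a cation channel gene that hosts the RPE-rich miR-204, was 7.39-fold higher in KO_PBS, at 2566 against 347 CPM (12 of 13 members), while its ratio was 1.28 in WT and 1.10 in KO. Bsg, the partner that brings MCT3 to the membrane, did not pass in any library, with ratios of 1.99, 1.16 and 1.55.

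**Figure D2:**
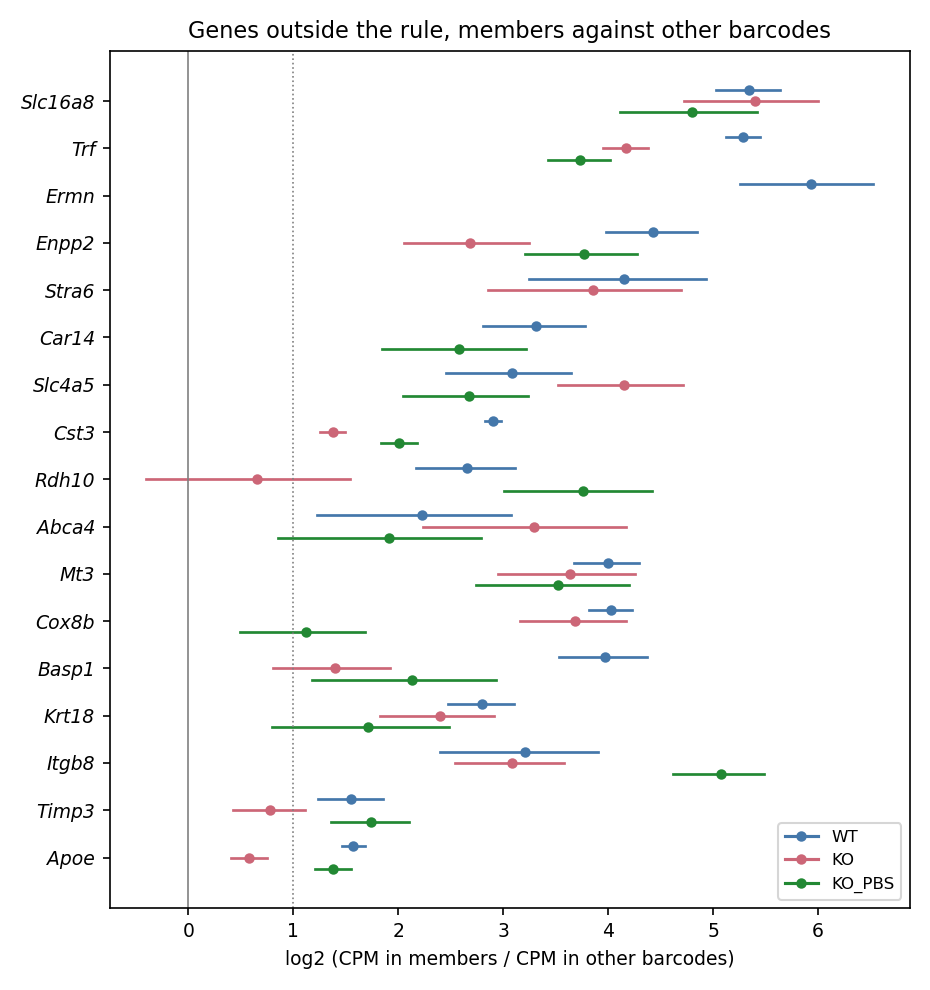
Points give the log2 ratio of CPM in members over the other barcodes for 17 genes outside the rule, with 95% counting intervals, by library; genes with under 10 UMIs in a library's members are left out there. The solid line marks equal levels and the dotted line a 2-fold ratio; Slc16a8 and Trf lie beyond a log2 ratio of 3.7 in every library, while Rdh10, Apoe and Timp3 lie under 1 in KO.

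Some retinoid handling genes that the rule did not use were also higher. Stra6, the receptor that takes retinol up from its blood carrier, was 17.8-fold higher in WT (28.9 against 1.62 CPM) and 14.5-fold in KO (32.4 against 2.24), and had 6 UMIs in KO_PBS. Abca4, which clears retinal across disc membranes and is best known from photoreceptors, was 4.69-, 9.81- and 3.77-fold higher, from 11, 10 and 10 UMIs. Its count was 4 in KO_PBS without the 2 members with 4 rule genes and 8 in KO without the member with the most photoreceptor UMIs, both under the 10 needed. Rdh10, a retinol dehydrogenase, was 6.31-fold higher in WT and 13.6-fold in KO_PBS, with a ratio of 1.58 in KO. Of the tested genes of this list, 4 of 5 (WT), 4 of 7 (KO) and 3 of 3 (KO_PBS) were higher, where 2.97%, 2.01% and 28.3% of all tested genes were. The KO_PBS genes passed the minimum mostly by being high there, and with no minimum 4 of 8 were higher, where 689 of 8936 were over all genes. Without the KO member with the most photoreceptor UMIs, 2 of 5 were higher in KO (median log2 ratio 0.90 in place of 1.88). The 4 in KO were Stra6, Abca4, Retsat (11 UMIs, 3.67-fold), a retinol saturase, and Rbp3 (30.2-fold), a retinoid carrier made by photoreceptors, of whose 20 UMIs 18 lay in 1 member.

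Trf, and in WT also Slc16a8, was higher in the members with the larger rule share. In WT, the 57 members at 5 to 10 times the library share held Slc16a8 at 88.9 CPM and Trf at 156, and the 83 at 10 times or more held them at 274 and 1066. In KO the values were 45.7 and 194 in 14 members, and 71.5 and 632 in 62. The Trf intervals of the lower and higher members did not overlap in WT or KO, and those of Slc16a8 did not overlap in WT but did in KO. The members were split by the share that chose them, and both genes were picked for large ratios in these same members. These values are therefore a description and no independent support. Krt12 stayed near its level in the other barcodes in both ranges, at 24616 and 22696 CPM in WT. In KO_PBS only 2 members lay at 10 times or more; they held 28 Trf UMIs (5280 CPM) and 0 of Slc16a8, which allows up to 696 CPM. At the KO_PBS threshold, the 18 WT members held Slc16a8 at 627 CPM and Trf at 2348, and the 4 KO members held Trf at 3683, next to 528 and 2465 in KO_PBS.

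**Figure D3:**
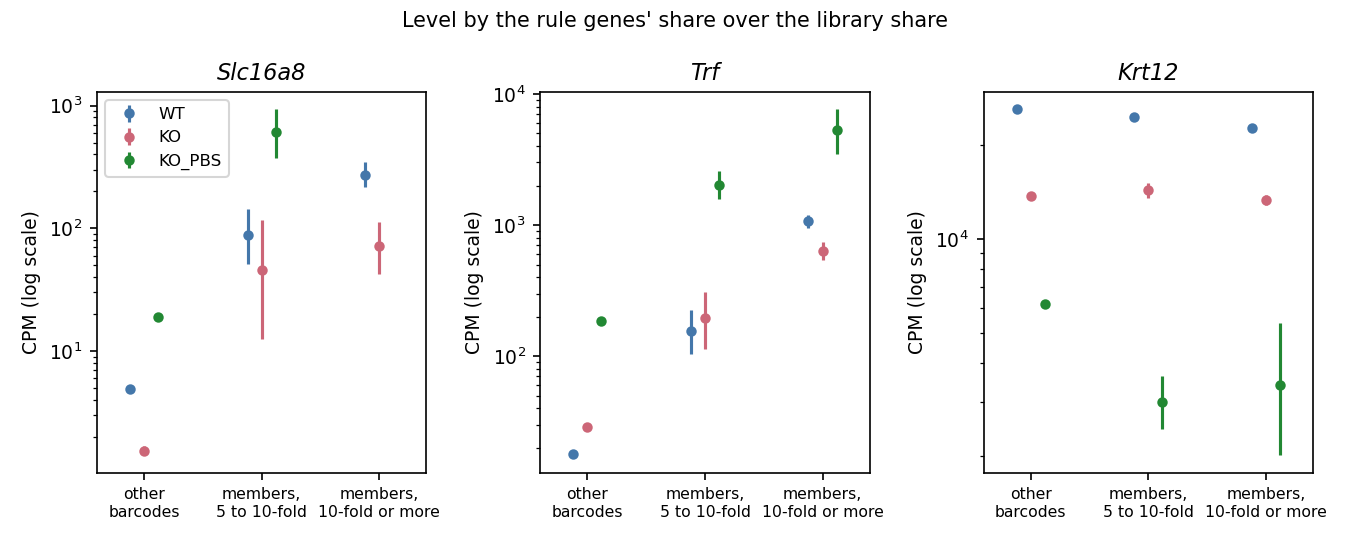
CPM (log scale) of Slc16a8, Trf and Krt12 in the other barcodes and in members below and above 10 times the library share, with 95% counting intervals, by library. Trf is higher in the right than in the middle group in WT and KO and Krt12 is not; KO_PBS Slc16a8 at 10-fold or more was 0 and is not drawn.

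Several genes outside the lists for RPE function were among the 20 with the largest ratios. Cltrn, a collectrin that helps amino acid transporters reach the membrane, was 20.7-fold higher in WT and 30.3-fold in KO (9 UMIs in KO_PBS), and the proteoglycan Cspg5 was 17.6- and 20.4-fold higher (8 UMIs). Mt3, a zinc-binding metallothionein, was 15.9-, 12.5- and 11.5-fold higher across WT, KO and KO_PBS. Cox8b, a cytochrome c oxidase subunit, was 16.3- and 12.9-fold higher in WT and KO and 2.18-fold in KO_PBS. Itgb8, an integrin subunit that activates TGF-beta, was 9.23- and 8.48-fold higher in WT and KO and 33.6-fold in KO_PBS, where 10 of 13 members held it; without the 2 members with 4 rule genes the KO_PBS fold was 50.6. Krt18, a keratin of simple epithelia, was 6.95-, 5.27- and 3.27-fold higher.

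The 16 genes higher in each of the 3 libraries were Cst3, Abca4, Gpnmb, Slc4a5, Ldhb, Cox8b, Mt3, Trf, Itgb8, Clu, Basp1, Enpp2, Slc16a8, Krt18, Pip5k1b and Mlana. WT and KO shared 33 higher genes, which is 21% of the WT and 30.6% of the KO genes. WT and KO_PBS shared 37 (23.6% and 20.8%), and KO and KO_PBS 18 (16.7% and 10.1%). Over all tested genes, 2.97% of 5290 (WT), 2.01% of 5381 (KO) and 28.3% of 630 (KO_PBS) were higher, which limits overlaps with KO_PBS. At least Abca4 and Mlana no longer passed in KO_PBS without the 2 members with 4 rule genes. Without the KO member with the most photoreceptor UMIs, 85 genes in place of 108 were higher in KO. Clu, the secreted chaperone clusterin, was 3.23-, 2.13- and 3.28-fold higher, and Gpnmb, a melanosome glycoprotein, 2.89-, 3.29- and 2.16-fold.

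Melanin genes were higher in the members, and so were markers of melanocytes. The melanin and melanocyte lists both hold Tyr, Dct, Pmel, Mlana and Slc45a2, so they are not separate evidence. Of the melanin list, 5 of 7 tested genes were higher in WT (median log2 ratio 1.2), 4 of 5 in KO (2.05) and 5 of 8 in KO_PBS (1.29). Over all tested genes 2.97%, 2.01% and 28.3% were higher, with medians of 0.07, 0.07 and 0.31, so the KO_PBS count cannot be read against the other 2. Dct, which makes the melanin precursor DHICA, stood at 1328 CPM against 337 in WT and 395 against 95.1 in KO, 3.94- and 4.15-fold higher. In KO_PBS it was at 4000 against 2035 and just missed the 2-fold size, with 81 of its 159 UMIs in 1 member. Pmel, the melanosome fibril protein, was 3.58- and 4.24-fold higher in WT and KO and stood at 1.27 times the others in KO_PBS. In KO_PBS the genes that passed were Mlana, Tyr, Oca2, Rab27a and Trpm1, at 2.73, 3.72, 3.53, 3.81 and 2.18 times.

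The 8 melanocyte markers together held 0.188% of member UMIs against 0.0631% in WT, 0.0672% against 0.0253% in KO and 0.679% against 0.383% in KO_PBS. A rule of the same kind for these markers was met by 7 WT members, 1 KO member and 1 KO_PBS member, and the last held 138 of the 270 melanocyte UMIs. Without it the melanocyte share in KO_PBS was 0.396% against 0.381% in the other barcodes. Melanocytes and the RPE share melanin genes, and the part of melanocyte RNA in these ratios was not tested. Without the 2 KO_PBS members with 4 rule genes, 1 of 5 melanin genes passed in KO_PBS. Mlana then stood at 0.932 times the other barcodes, Tyr at 2.34 from 8 UMIs and Trpm1 at 1.26. Oca2 had 8 of its 11 UMIs left, under the 10 needed, and Rab27a, with its 11 UMIs in the other members, was the gene that passed. Rab27a in turn had 9 UMIs without the member with the most photoreceptor UMIs. Of the 8 markers, Sox10, which melanocytes have and the RPE lacks, had 1, 3 and 2 UMIs in the members of WT, KO and KO_PBS. This is 1 gene, under the 10 UMIs needed, and its level in the other barcodes is not given here. The whole melanocyte list had 5, 5 and 4 tested markers in these libraries, and 3, 3 and 2 of them were higher. The share higher over all tested genes was 2.97%, 2.01% and 28.3%.

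Transcription factors of the RPE were near the limit of detection. Mitf, which drives pigment genes, was at 24.4 CPM against 10.2 in WT, 2.41-fold higher, and at 32.4 against 32.3 in KO. Otx2 had 8 UMIs in WT and 8 in KO, and in KO_PBS 11 UMIs gave 277 CPM against 48.1, 5.76-fold higher. Without members that met another marker list, Mitf in WT and Otx2 in KO_PBS both lay under the 10 UMIs needed. After thinning, 1.43% of WT members (0.173 to 5.07%) held a Mitf UMI against 1.00% of the others. Pax6, also a factor of the corneal epithelium, did not pass in any library, at 420 against 506, 395 against 400 and 478 against 459 CPM.

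Genes for the uptake of outer segments and for cell junctions gave few calls. With 2.97% (WT) and 2.01% (KO) of all tested genes higher, few calls are the background in these libraries. None of the 9 uptake genes tested in WT and none of 9 in KO passed, with medians of −0.07 and 0.04. In KO_PBS, where 28.3% of all tested genes were higher, 3 of 5 did: Itgav, an integrin subunit that binds shed segments, was 7.92-fold higher (729.6 against 92.2 CPM), the ligand Gas6 2.52-fold and the lysosomal protease Ctsd 2.67-fold. The 5 genes passed the UMI minimum mostly by being high in KO_PBS members. With no minimum 3 of 11 were higher, where 689 of 8936 were over all genes. Itgav was 10.7-fold higher without the 2 members with 4 rule genes, and Gas6 stood at 0.743 times the others from 3 UMIs. The receptor Mertk had 1, 5 and 3 UMIs. Of the junction list, Krt18 passed in each library and Krt8, its partner keratin, in KO (2.63-fold), while Tjp1, Cdh1 and Pard3 were not called in WT or KO.

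Photoreceptor transcripts were found in members too, and most of the calls rested on 1 barcode in WT and 1 in KO. In WT 6 of 8 tested photoreceptor markers were higher, in KO 11 of 11 and in KO_PBS 0 of 3, where 2.97%, 2.01% and 28.3% of all tested genes were. In KO, 413 of the 452 UMIs of the 15 markers came from 1 member of 6854 UMIs. Without this member the markers took 0.0117% of KO member UMIs, in place of 0.133%, against 0.00849% in the other barcodes, and 85 genes were higher and 2 lower of 5282 tested. In WT the member with the most held 60 of 217. Without it 1 of 7 tested markers was higher in WT (median log2 ratio 0.64 in place of 1.2), and without the KO member 0 of 1 was in KO. Rom1, Pde6g, Gnat1, Prph2, Pdc and Sag, all genes of photoreceptors, were among the 20 largest ratios, with folds of 10.5 to 24.7 in KO and 2.16 to 4.13 in WT. The cone marker Arr3 had 0 UMIs in the members of each library.

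**Figure D4:**
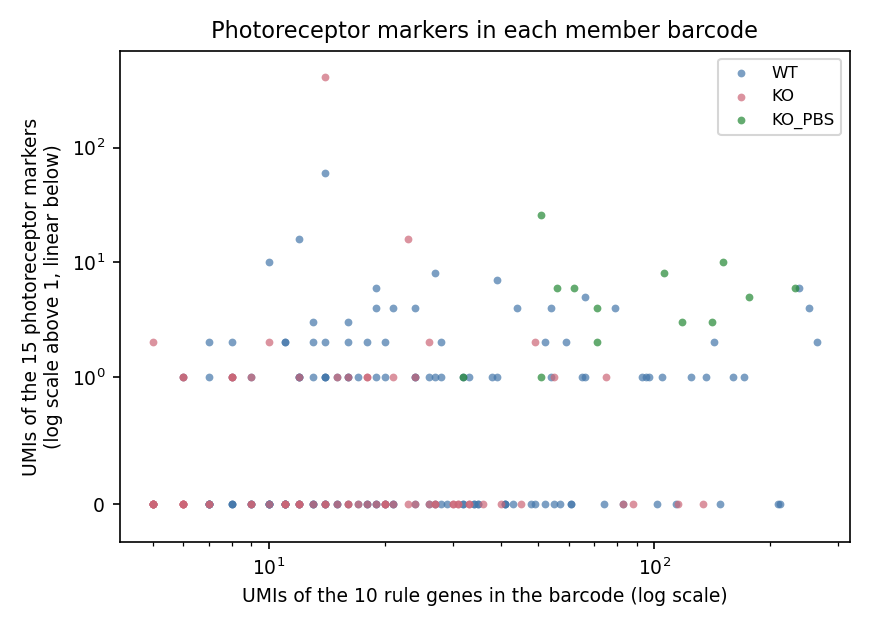
Each point is 1 member: UMIs of the 10 rule genes (x axis, log scale) against UMIs of 15 photoreceptor markers (y axis, log above 1 and linear below), by library. The KO member with 413 photoreceptor UMIs stands apart at the top, and 72 of 140 WT and 55 of 76 KO members lie at 0.

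Markers of other cell types that the samples could hold gave 3 calls in WT and none in KO, apart from melanocytes and photoreceptors. In WT the lens gene Bfsp1 was 2.6-fold higher (14 UMIs), the endothelial marker Fxyd4 stood at 0.49 times (12 UMIs) and was lower, and the haemoglobin gene Hba-a1 was 2.24-fold higher (17 UMIs). Red blood cell markers took 0.00844% of member UMIs against 0.00570% in WT, with 21 of 38 UMIs in 1 member, and 0.0133% against 0.0214% in KO. Besides melanocytes and photoreceptors, 3 of 140 WT members met the same kind of rule for lens, 1 for corneal endothelium, and 1 of 76 KO members for plasma and B cells. Of all eligible barcodes, 1.24% (WT, lens), 0.566% (WT, corneal endothelium) and 0.313% (KO, plasma and B cells) met these rules. Keratocyte markers took 0.583% of member UMIs against 0.662% in WT, 0.963% against 0.976% in KO and 0.450% against 0.933% in KO_PBS. T cell markers had 0 UMIs in WT members. In KO_PBS, corneal epithelial markers were at 0.898% against 1.82% and lens markers at 0.400% against 0.745%, both less than in the barcodes around them. Ciliary and iris epithelium markers went the other way in KO_PBS, at 0.0704% against 0.0121%. Of their 28 UMIs in members, 22 were of Zic1, the 1 marker tested, which was 13-fold higher, and without the member that held 13 of the 28 the share was 0.0469%. Of the Muller glia markers 2 of 4 tested were higher in KO_PBS (28.3% of all tested genes were), where the list took 0.327% against 0.269%, and 0.235% against 0.267% without the member that held 55 of its 130 UMIs. The part of this RNA in the KO_PBS results was not tested.

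Interferon and antigen presentation genes gave no call in WT or KO members by the full rule, and in KO_PBS members the number called lower changed with the setting. The list took 0.137% of member UMIs against 0.151% in WT, 1.24% against 1.23% in KO and 0.631% against 1.11% in KO_PBS. Over all tested genes 2.97% (WT) and 2.01% (KO) were higher and 0.0945% and 0.0929% lower. Few calls are therefore the background in these 2 libraries. Of the list, 0 of 11 tested genes in WT and 0 of 25 in KO were higher or lower (medians −0.09 and 0.01), and in KO_PBS 0 of 8 were higher and 1 lower (−0.77), where 7.62% of all tested genes were lower. A minimum on member UMIs leaves out genes that are low there: with 10 UMIs observed or expected 0 were higher and 5 lower of 12 in KO_PBS (over all genes 101 of 734 were lower), and with no minimum 0 and 6 of 25 (124 of 8936). Without the 2 members with 4 rule genes 0 of 8 were lower, without members of another marker list 0 of 7, with the mean of each barcode's own shares 0 of 8, and with the rule without Ptgds 0 of 26. The median was below 0 in each of these settings, from −0.99 to −0.34. In the other 2 libraries the 4 KO members above the KO_PBS threshold gave 3 of 9 genes higher (median 0.94), and the WT members by the rule without Ptgds gave 1 of 9 lower. Over all tested genes 28 of 213 were higher in the first and 6 of 4101 lower in the second. Genes in the 4 KO members passed the minimum mostly by being high there. Cd74, the chaperone of MHC class II, stood at 73.3 CPM in WT members against 66.0 in the other barcodes, 2045 against 2120 in KO and 1107 against 1910 in KO_PBS. B2m, the light chain of MHC class I, was at 160 against 118, 1703 against 1777 and 1233 against 2090. For these 2 genes members lay near the others in WT and KO and under them in KO_PBS. H2-Eb1, a class II chain, was the gene that passed in KO_PBS, at 302 against 660 CPM, and its ratio was 0.659 without the 2 members with 4 rule genes, short of the size rule.

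**Figure D5:**
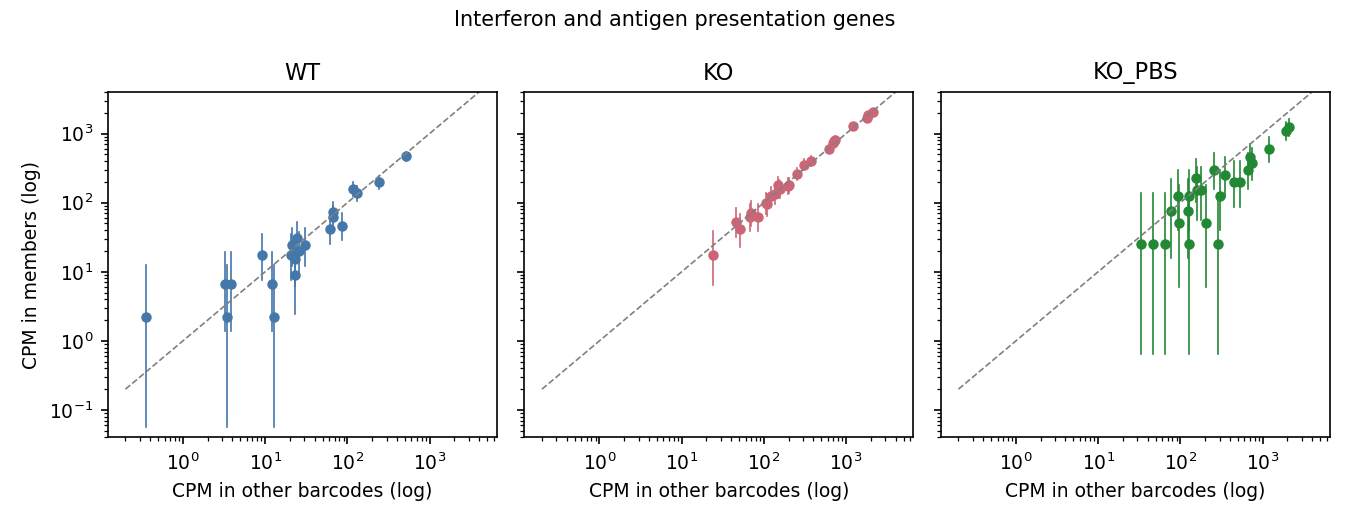
CPM of interferon and antigen presentation genes in members (y axis) against the other barcodes (x axis) in each library, both on log scales, with 95% counting intervals; genes with 0 UMIs in members are not drawn. The dashed line marks equal levels: the KO genes lie along it and most KO_PBS genes lie under it.

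Complement and stress genes gave 3 calls in WT, none in KO and 2 in KO_PBS. Of the stress list, 2 of 9 (WT), 0 of 6 (KO) and 2 of 5 (KO_PBS) tested genes were higher, both times Mt1 and Tgfb2, where 2.97%, 2.01% and 28.3% of all tested genes were, so the KO_PBS count is near its background. Without members of another marker list 0 of 5 stress genes were higher in WT. With the mean of each barcode's own shares, or against the shallowest 25% of barcodes, 1 of 9 was. Of the complement list, 1 of 2 tested genes was higher in WT and 0 of 8 in KO, and none had 10 UMIs in KO_PBS. The 4 KO members above the KO_PBS threshold gave 2 of 2 complement and 1 of 2 stress genes higher, and the KO members by the rule without Ptgds gave 1 of 6 complement genes. Over all tested genes 28 of 213 and 86 of 1882 were higher in these settings. Genes in the 4 KO members passed the minimum mostly by being high there, so those counts are a description. Mt1, a metallothionein, was 2.08-fold higher in WT and 2.99-fold in KO_PBS, with a ratio of 1.3 in KO. Tgfb2, a growth factor of the eye, was 2.28-fold higher in WT and 6.17-fold in KO_PBS, where it stood at 3.69 times from 8 UMIs without the 2 members with 4 rule genes. The stress genes Hmox1 (1, 2 and 1 UMIs) and Atf3 (1, 6 and 1) were too low for a call.

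The members of the 3 libraries were then compared with each other, which the design implies as knockout against wild type and saline against no saline. The pairs share libraries, so their values are not independent. The members had also passed unlike thresholds, at 0.311% (WT), 0.0839% (KO) and 2.27% (KO_PBS) of a barcode's UMIs. A gene with at least 20 UMIs over both sums was called by the same rule of size. Knockout members against wild-type members gave 665 of 5361 genes higher (12.4%) and 146 lower (2.72%). Centred on the median gene, whose log2 ratio was 0.25 in members and 0.27 in the other barcodes, they gave 438 higher and 287 lower.

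KO members held more interferon and complement RNA than WT members, and so did the other barcodes. Markers of other cell types moved with them, as 3 of 3 macrophage (median 3.78), 3 of 5 plasma and B cell (4.28) and 5 of 6 keratocyte markers (2.13) were higher in KO members, and their part was not tested. All 24 tested interferon and antigen presentation genes were called higher, with a median log2 ratio of 3.22 in members and 3.57 in the others, and 7 of 9 complement genes were (3.62 and 4.00). H2-Eb1 stood at 772 CPM in KO members (681 to 872) and 8.89 in WT (2.42 to 22.7), against 707 and 23.1 in the others. H2-Ab1 was at 719 and 15.5, and C1qb, a chain of C1q made by macrophages, at 242 and 4.44. These genes were spread over members: H2-Eb1 was found in 71 of 76 KO and 4 of 140 WT members.

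For RPE and melanin genes the KO members by the full rule did not stand above the WT members. The KO members had passed a lower threshold, at 0.0839% against 0.311% of a barcode's UMIs, and its part was not tested. Of the transport list, 1 of 14 was higher and 3 lower (median −0.45 in members, 0.27 in the others), and of the melanin list 0 of 7 were higher and 3 lower (−1.40 and −1.38). Of lens markers 3 of 5 (median −1.12) and of corneal endothelium markers 3 of 6 (−1.57) were lower too, with 0 higher. Keratocyte, macrophage and plasma and B cell markers went the other way, as given above, and the part of these cells was not tested. Slc16a8 was at 64.8 CPM in KO and 200 in WT members, and Dct at 395 and 1328, both called lower. Both were also lower in the other barcodes, at 1.54 against 4.92 CPM for Slc16a8 and 95.1 against 337 for Dct. Trf stood at 519 and 702 and was not called. At the KO_PBS threshold the order of Trf was reversed, with the 4 KO members above the 18 WT members, as given above. This is 1 gene, and 45 of the 176 Trf UMIs of all KO members lay in 1 barcode. Whether that barcode is among the 4 is not given here.

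KO_PBS members against WT members gave 381 of 3331 genes higher (11.4%) and 197 lower (5.91%). The median log2 ratio was −0.20 in members and −0.13 in the others over the 1691 genes with at least 3 UMIs expected in both sums, and 0.50 over all tested genes. Centring on these medians gave 441 higher and 153 lower with the first and 231 higher and 386 lower with the second, so the split between directions rests on the centring. KO_PBS against KO gave 245 of 3326 higher (7.37%) and 185 lower (5.56%), with 284 and 145 or 205 and 247 after centring.

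Most tested transport and melanin genes were higher in KO_PBS members than in those of the other 2 libraries, and the medians were also above 0 in the other barcodes. Markers of other cell types moved with them: 5 of 5 tested lens markers were higher than in WT (median 3.23) and 4 of 4 higher than in KO (4.59), and 4 of 6 and 4 of 5 melanocyte markers were. Some of the melanocyte markers are also genes of the melanin list. Against WT 3 of 5 photoreceptor and 3 of 4 Muller glia markers were higher too, and the part of these cells in the comparison was not tested. Of the transport list, 10 of 14 were higher than in WT (median 2.21 in members, 2.4 in the others) and 11 of 13 higher than in KO (2.85 and 1.93). Of the melanin list, 7 of 7 were higher than in WT and 6 of 6 higher than in KO. Without the 2 KO_PBS members with 4 rule genes, 3 of 6 melanin genes were higher than in WT (median 1.36 in place of 2.90) and 3 of 3 higher than in KO. Over all tested genes 242 of 3140 and 157 of 3134 were then higher. The KO_PBS members had passed the highest threshold, and with that threshold in every library fewer calls were left. Of the transport list 5 of 10 were then higher and 1 lower than in WT (median 0.83) and 2 of 9 higher than in KO (0.92), and of the melanin list 3 of 6 were higher in each pair. Over all tested genes 89 of 685 were higher and 131 lower than in WT. Against KO, 33 of 361 were higher and 57 lower. Trpm3 was an exception in the others: it stood at 2566 CPM in KO_PBS members against 324 in WT and 357 in KO, but at 347, 254 and 323 in the other barcodes. Itgb8 was at 1157 CPM against 35.5 in WT and 94.3 in KO members, and at 34.4, 3.85 and 11.1 in the others. Both genes are long, and in each pair genes called higher were longer than those called lower: for KO_PBS against WT the median gene length was 55.8 kb for those higher, 6.27 kb for those lower and 22.4 kb for the rest. For KO_PBS against KO the lengths were 48.3, 6.45 and 28.2 kb and for KO against WT 40.3, 13.1 and 26.4 kb, and the part of length in these calls was not tested.

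Among genes higher in KO_PBS members, the largest ratios beyond those of the other barcodes came partly from few members. Zic1, a factor of the ciliary and iris region, had 22 UMIs in 3 KO_PBS members and 1 in WT. Tyr, the first enzyme of melanin synthesis, was at 503 CPM in KO_PBS members, 13.3 in WT and 2.95 in KO. Of its 20 UMIs in KO_PBS members, 8 were left without the 2 members with 4 rule genes. Otx2os1, the antisense neighbour of Otx2, was at 528, 17.8 and 20.6 CPM, from 8, 5 and 6 members. Whether the counting used strand is not given in the sources used here, so the reads of this pair may be mixed. In the lower direction the noncoding AY036118 had the largest ratio of KO_PBS members against both other libraries. It was at 201 CPM against 32737 in WT and 18116 in KO members. The other barcodes had 512, 35887 and 19410, so this difference ran through the libraries, and its cause was not tested.

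Of 8 corneal epithelial markers, 4 were lower in KO_PBS than in WT members (median −0.95 in members, −0.32 in the others) and 6 lower than in KO members (−2.05 and −1.08), and 0 were higher in either pair. Krt12 stood at 3044 CPM against 23464 in WT, where the others had 6200 and 26126. Krt15, a keratin of basal cells, was at 126 against 2070 (others 464 and 2146), and Sfn, an epithelial 14-3-3 protein, at 151 against 1391 (others 722 and 1577). Of the interferon list, KO_PBS members stood higher than WT members in 4 of 9 tested genes, with 0 lower (median 1.45 in members, 2.54 in the others). Against KO, 0 of 23 were higher and 6 lower (median −0.80 in members, −0.10 in the others), H2-K1 among them at 377 against 1276 CPM. With the KO_PBS threshold in every library, KO_PBS against WT gave 89 genes higher and 131 lower of 685 tested. KO against WT gave 29 and 26 of 491, and KO_PBS against KO 33 and 57 of 361.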

How the data were processed

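Per the labels, nuclei of whole mouse corneas were profiled with a 10x Genomics 3′ kit, 1 library for each of WT, KO and KO_PBS. The deposited files hold raw UMI counts for each gene in each barcode, without scaling. Cell Ranger 7.0.1 produced them per the file headers, and the submitters' processing notes name the build mm10. How barcodes were filtered, how intronic reads were handled and which annotation was used are not given in the sources used here. The libraries held 256852883 (WT), 352627863 (KO) and 178988562 (KO_PBS) UMIs.

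Members were found with the rule given at the start on all genes of each file. Comparisons used the 30406 gene IDs found in every list (32285 IDs in WT and KO, 31053 in KO_PBS). UMIs were summed over members and over the other barcodes, scaled to CPM, and given exact Poisson intervals. Shares of barcodes have exact Clopper-Pearson intervals. Cells are not replicates, so no test was run. No doublet caller was run. Of the members, 6 in WT, 5 in KO and 2 in KO_PBS lay above the 99th percentile of UMIs of their library. For shares, each barcode was thinned to 1000 UMIs, which left out 219, 213 and 13819 eligible barcodes that were shallower, none of them a member. As a check of the code only, the rule of size was also run on simulated sums with known folds.

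Named genes were the 10 rule genes, genes of the fixed lists with at least 10 UMIs in the members of a library, the 20 genes outside the rule with the largest mean log2 ratio over WT and KO among those higher in both, and for each pair the 10 genes each way with the largest ratio whose ratio was at least 1.5 times further from 1 than in the other barcodes. Some genes that this rule picks are not reported here. Other genes are named only with their counts, to show that they lie under the limit, or as shared by all 3 libraries. The members and lists were chosen with earlier results of these data known. Medians between libraries use genes with at least 3 UMIs expected in both sums, a choice made after seeing that the floor of 3 counts raised low genes in the small KO_PBS sum. Ratios that this floor turned into a bound pointing the other way were left out. Gene positions and lengths are from GENCODE M21 and promoter windows from RefSeq. All of it ran in Python 3.11.15, with pandas 2.3.3, numpy 2.4.6, scipy 1.17.1 and, for the plots, matplotlib 3.10.9.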

Additional observations from a re-analysis of the deposited data

How the results depend on the processing

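No paired analysis was possible because each group was 1 library, and no replicate could be left out for the same reason. Alternatives on the rule, the reference barcodes and the limits were planned; those using a rule without Ptgds, the KO_PBS threshold in every library, no member with the most photoreceptor UMIs, no KO_PBS member with 4 rule genes, and a minimum on observed or expected UMIs were chosen after seeing the data. Where a setting changed the number of members or of genes tested, that change is part of the difference; beyond it, the cause was not tested. The number of members was 66 in KO_PBS at 3 times the library share, and 83 in WT and 2 in KO_PBS at 10 times. It was 235 in WT and 178 in KO with at least 3 rule genes, and 47 and 21 with at least 5. It was 61, 22 and 238 (WT, KO, KO_PBS) without Ptgds and 47, 22 and 7 without Ttr. It was 46 in WT and 5 in KO after thinning to 1000 UMIs, and 18 and 4 at the KO_PBS threshold. Genes higher and lower in members than in the other barcodes, written as higher/lower, were 60/0 in WT, 44/0 in KO and 97/3 in KO_PBS at a 3-fold size. With no UMI minimum they were 360/69, 334/67 and 689/124. Lower genes numbered 79 in KO_PBS against the shallowest 25% of barcodes, 1 in WT and 2 in KO at 10 times the library share (KO_PBS 11/4), and 26, 14 and 22 with the mean of each barcode's own shares. Without members that met another marker list, 3 were lower in WT and KO_PBS gave 69/12. Without Ptgds, 0 were lower in KO and 844 higher in KO_PBS, and at the KO_PBS threshold WT gave 92/1 and KO 28/3. Without the member with the most photoreceptor UMIs, 2 were lower in KO, and without the KO_PBS members with 4 rule genes KO_PBS gave 74/11. With 10 UMIs observed or expected, 42, 47 and 101 were lower. Between members of KO_PBS and WT, 122 genes were lower at a 3-fold size, 898 higher with no minimum, 231/386 after centring on the median gene, 60/64 at 10 times the library share, and 199 higher without members of another list. They were 98/119 with equal members and UMIs, 2225/486 without Ptgds, 89/131 at the KO_PBS threshold, and 242 higher without the members with 4 rule genes. Between KO and WT they were 424/51 at a 3-fold size, 438/287 after either centring, 392 higher at 10 times the library share, 357 higher with equal members and UMIs, 231/94 without Ptgds and 29/26 at the KO_PBS threshold. Between KO_PBS and KO, 121 were lower at a 3-fold size, 577 higher with no minimum, 55/39 at 10 times the library share, 159/117 without members of another list, 86/105 with equal members and UMIs, 646/292 without Ptgds, 33/57 at the KO_PBS threshold and 157/114 without the members with 4 rule genes. Some called values changed sign. Without members of another list the log2 ratio over the other barcodes was −0.19 for Prph2 in WT, −0.053 for Sag in KO (2 UMIs, set to the floor of 3), and −0.34 for Gas6 and −0.014 for Mlana in KO_PBS. Without the member with the most photoreceptor UMIs Sag in KO was at −0.10. Without the KO_PBS members with 4 rule genes Gas6 was at −0.43 and Mlana at −0.10, and without Ptgds Mlana was at −0.24 and Apoe at −0.12 in KO_PBS. Of the list medians, KO_PBS against WT gave −1.32 for uptake genes at 10 times the library share and −0.037 and −0.18 for visual cycle and junction genes at the KO_PBS threshold. KO against WT gave −2.37 for photoreceptor genes without members of another list and −1.33 without the member with the most photoreceptor UMIs. Of 2473 values of named genes in members against the other barcodes over all alternatives, 2175 moved by less than their interval, 289 moved by more and 9 changed sign. Settings that changed only the size or the UMI minimum leave a ratio as it was, so their values count as unmoved by construction. The 2175 is therefore no measure of how stable the ratios are. Depth limits KO_PBS most, where the members held 39750 UMIs in all and a count of 0 allows up to 92.8 CPM.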
